A study of Mus musculus with 12 samples.

Results

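The endothelium is the single cell layer that lines the inside of the aorta, and 10 genes that mark it were followed here across 4 treatment groups of mouse aorta. They were the junction and adhesion genes Pecam1, Cdh5, Esam and Cldn5, the stored and secreted clotting factor gene Vwf, the VEGF receptor genes Kdr and Flt1, the angiopoietin receptor gene Tek with its partner Tie1, and the TGF-β and BMP co-receptor gene Eng. Members were all non-control probes of the array that carried one of these gene names, and there were 14 such probes among 55681 probes in all, which carry 34797 gene names. Each gene was described, and counted as 1 gene, by its probe with the highest mean signal over all arrays, and 13 of the 14 probes were bright enough to be tested.

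RNA came from the aortas of male C57BL/6J mice aged 11 to 14 weeks, taken at day 3 by the series record, as a segment of 10 mm above the right renal artery. The DMSO group received the vehicle alone, the rapamycin group received the mTOR inhibitor rapamycin at 2 mg/kg/day, the BA+DMSO group received 150 mg/kg/day of the collagen crosslink inhibitor β-aminopropionitrile (BAPN) and 1 µg/kg/min of angiotensin II (AngII) together with vehicle, and the BA+rapamycin group received BAPN, AngII and rapamycin. BAPN and AngII were infused by osmotic minipumps. By the same record rapamycin or vehicle was injected intraperitoneally each day. The titles of the DMSO arrays begin with "Pre", a name the record gives as another for DMSO alone, and the sample labels give the treatment as DMSO. Whether these mice received vehicle for 3 days or were taken before the challenge is not settled by that name, and the comparisons with DMSO are open to this doubt. Each group held 3 mice, and each mouse gave 1 single-colour array. RNA of the whole wall was measured, so that fewer endothelial cells and less RNA per endothelial cell cannot be told apart.

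VE-cadherin (Cdh5) and claudin 5 (Cldn5) close the junctions between neighbouring endothelial cells, while PECAM1 and ESAM are immunoglobulin-type adhesion molecules of the same contacts. VEGF acts mainly through the receptor KDR, and FLT1 binds the same ligand more tightly with weaker signalling. Angiopoietins act through TEK, also called Tie2, whose relative TIE1 binds none of them with high affinity and modulates TEK in the same membrane. Several of these genes are also used outside the endothelium, such as Pecam1 in platelets and leukocytes, Vwf in platelets and megakaryocytes, and Flt1 and Eng in activated macrophages.

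Values are log2 intensities relative to the 75th percentile of each array, so a value of 0 means a spot as bright as that percentile, and a difference of 1 is a doubling. Levels of different probes cannot be compared with each other. The 75th percentile itself lay between 221 and 337 intensity units on the 6 arrays without challenge and between 74.6 and 246 on the 6 challenged arrays. All DMSO arrays lay on 1 slide together with rapamycin replicate 1, and all challenged arrays lay on the other slide with rapamycin replicates 2 and 3, so slide and challenge can be separated only through the rapamycin arrays. BA+rapamycin replicate 3 gave the highest value of its group for 9 of the 10 genes.

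The probes for Tek and Tie1 are shown because the receptors are relatives whose values went apart. The probes were read from the scanner files, which place Tek at chr4:94540624-94540683 on the forward strand and Tie1 at chr4:118144132-118144191 on the reverse strand of build mm9. Both are 60 bases long. They lie at matching places of the 2 receptors, shifted by 3 bases, and capitals mark the 39 identical bases of 57 aligned. The third sequence is the probe for Pecam1 at chr11:106540864-106540923, reverse strand, shown without marks since this gene too lay lower after the challenge under rapamycin. The brightest probes of the other genes lie, in the same build, at chr8:106668159-106668218 (Cdh5), chr9:37345795-37345854 (Esam), chr16:18778046-18778105 (Cldn5), chr6:125636551-125636610 (Vwf), chr5:76330395-76330454 (Kdr), chr5:148373791-148373850 (Flt1) and chr2:32537268-32537327 (Eng).

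Tek: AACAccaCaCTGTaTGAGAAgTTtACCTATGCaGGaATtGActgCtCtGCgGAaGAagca

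Tie1: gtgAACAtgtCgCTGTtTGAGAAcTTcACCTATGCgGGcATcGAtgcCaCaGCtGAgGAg

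Pecam1: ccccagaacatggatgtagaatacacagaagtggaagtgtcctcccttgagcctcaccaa

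The challenge alone, BA+DMSO against DMSO, asked how the endothelial genes stood after 3 days of BAPN + AngII. Kdr rose 2.42-fold, Tie1 1.90-fold and Eng 1.73-fold, and no member fell. These were 3 of 10 genes called by limma at an adjusted p under 0.05, against 20.5% of all 27801 probes tested in either direction, 9.65% higher and 10.8% lower. The fitted difference was positive for 8 of the 10 genes, and its median over them was 0.57 on the log2 scale beside -0.05 over all probes. Pecam1 and Tek were the exceptions, at -0.28 each, and neither passed the test.

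The challenge in the presence of rapamycin, BA+rapamycin against rapamycin, moved genes of the list in both directions. Kdr rose 3.32-fold, Flt1 1.99-fold and Eng 1.60-fold, whereas Tek fell 1.99-fold and Pecam1 fell 1.83-fold. That made 5 of 10 genes called, where 41.7% of all probes were called, 18.9% higher and 22.9% lower. The median difference over the genes was 0.31 beside -0.09 over all probes, and without BA+rapamycin replicate 3 it was -0.04. The median over all probes turned positive with normexp background correction and without the filter on dim probes, as given in the last section. That filter does not change the fitted differences of the 10 genes. Without it their median therefore lay below that of all probes. Counted in either direction, a share of 3 or 5 in 10 lay close to the share of all probes in both comparisons. All 3 calls after the challenge were higher, where 9.65% of all probes were called higher, and this gap was not tested.

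**Figure D1:**
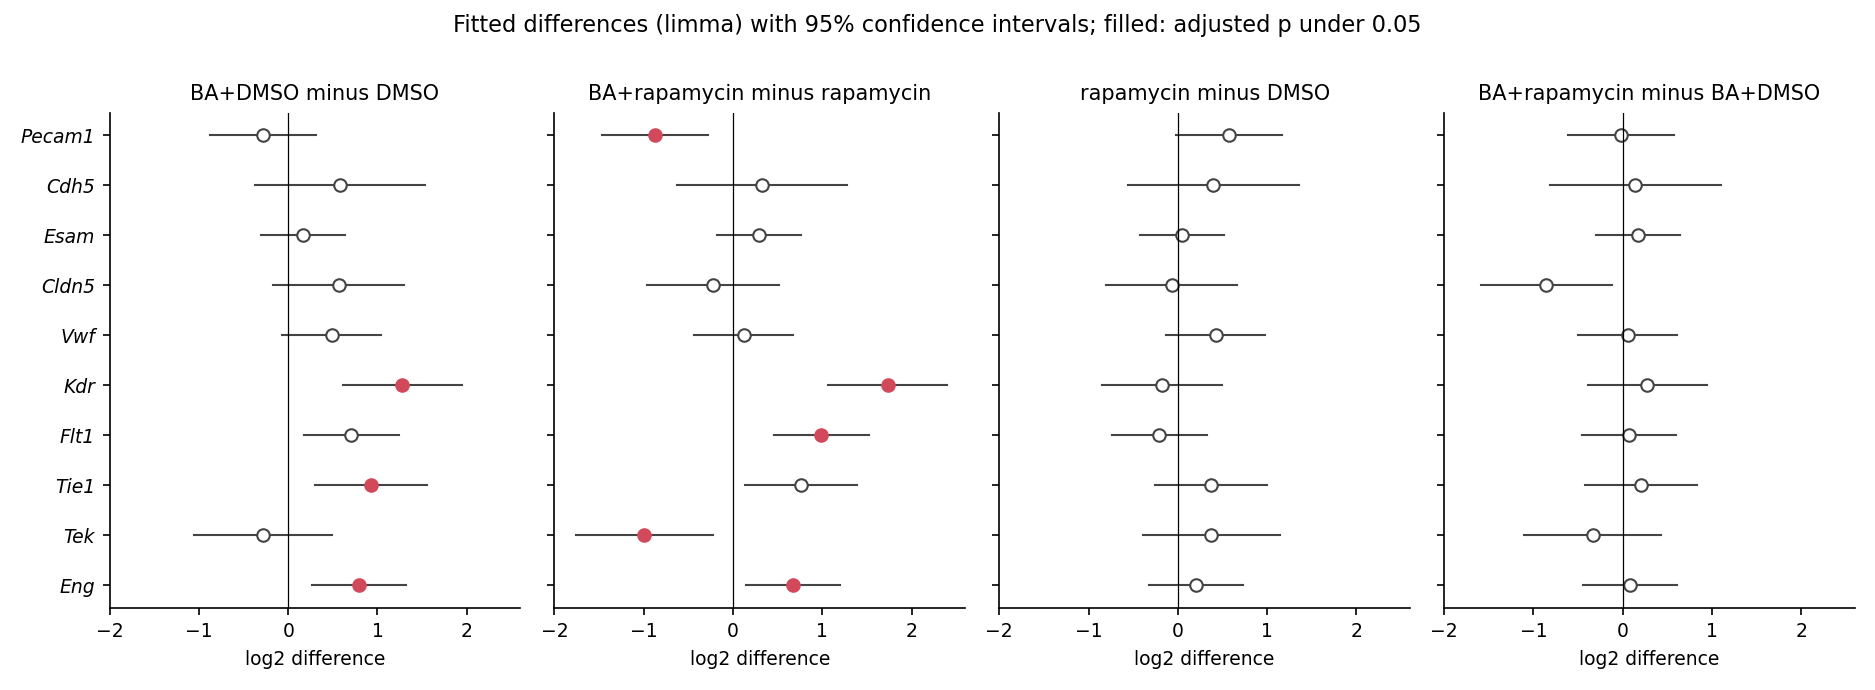
Fitted log2 differences for the 10 genes in 4 comparisons (x axis, limma estimate as a point, line for the 95% confidence interval; genes on the y axis). Filled points passed an adjusted p under 0.05: Kdr, Tie1 and Eng after the challenge, Kdr, Flt1, Eng, Tek and Pecam1 after the challenge under rapamycin, and none in the 2 rapamycin comparisons.

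Kdr encodes VEGF receptor 2, the main signalling receptor for VEGF in endothelial cells. Its log2 values were 2.80, 2.89 and 3.16 on the DMSO arrays, 2.94, 2.91 and 2.46 on the rapamycin arrays, 4.19, 4.95 and 3.54 on the BA+DMSO arrays, and 4.42, 4.68 and 4.41 on the BA+rapamycin arrays. Every challenged array lay above every array without challenge. The difference was 1.28 ± 0.30 (SE) with an adjusted p of 0.0154 (limma) after the challenge, and 1.73 ± 0.30 with an adjusted p of 0.00221 (limma) under rapamycin. A second, much dimmer Kdr probe, present in 10 copies on each array, moved the same way by 1.73 (adjusted p 0.0188, limma) and 1.18 (adjusted p 0.0476, limma). Among the BA+DMSO arrays Kdr was highest on replicate 2, the dimmest array of the group, and lowest on replicate 3, the brightest. With array brightness as a covariate the differences were 0.53 (adjusted p 0.0349, limma) and 0.42 (adjusted p 0.237, limma). The challenge call was lost without DMSO replicate 1 (adjusted p 0.0544, limma) or DMSO replicate 2 (adjusted p 0.0636, limma), and with slide as a fixed block (1.53, adjusted p 0.377, limma). Within the slide that held both groups, the difference under rapamycin was 1.82 (adjusted p 0.0319, limma).

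Flt1 encodes VEGF receptor 1. Its brightest probe read 2.41, 2.73 and 2.56 with DMSO, 2.60, 2.39 and 2.08 with rapamycin, 3.43, 3.50 and 2.90 with BA+DMSO, and 3.13, 3.13 and 3.78 with BA+rapamycin. The challenged arrays were all above the others, as for Kdr. After the challenge the difference of 0.71 ± 0.24 (SE) missed the threshold (adjusted p 0.0592, limma), and it passed without BA+DMSO replicate 3 (adjusted p 0.0151, limma) or BA+rapamycin replicate 3 (adjusted p 0.0467, limma). It was 0.64 and called with slide as a random block (adjusted p 0.02, limma), and 1.08 and not called with slide as a fixed block (adjusted p 0.421, limma). Under rapamycin it was 0.99 ± 0.24 (adjusted p 0.00938, limma). Within the shared slide it was 1.11 (adjusted p 0.0543, limma), and with brightness as a covariate 0.52 (adjusted p 0.440, limma). A second Flt1 probe for another transcript did not follow, with differences of 0.41 and -0.22 that were not called and groups that overlapped, and with both probes averaged the difference under rapamycin was 0.39 (adjusted p 0.178, limma). The third Flt1 probe was not well above background on any array.

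Tie1 was the receptor of the angiopoietin pair that rose. Log2 values of 0.33, 0.56 and 0.75 with DMSO stood against 1.78, 1.18 and 1.46 with BA+DMSO. The rapamycin arrays gave 0.95, 1.14 and 0.68, and the BA+rapamycin arrays 1.48, 1.22 and 2.34. Neither pair of groups overlapped, although rapamycin replicate 2 and BA+rapamycin replicate 2 lay close together. The difference was 0.93 ± 0.29 (SE, adjusted p 0.0416, limma) after the challenge and 0.76 ± 0.29 (adjusted p 0.0523, limma) under rapamycin. The first call was narrow, being lost on leaving out DMSO replicate 1, 2 or 3, rapamycin replicate 1, 2 or 3, BA+DMSO replicate 1 or BA+rapamycin replicate 1, at adjusted p from 0.0536 to 0.139 (limma). The second was gained without BA+DMSO replicate 2 (0.0385) or BA+rapamycin replicate 2 (0.0328), while without BA+rapamycin replicate 3 the difference was 0.43 (adjusted p 0.193, limma) and without rapamycin replicate 3 it was 0.63 (adjusted p 0.166, limma). It was called in 8 of 25 other settings in all, the others being quantile normalization, the deposited matrix, the percentile over detected probes, the filter on all arrays, slide as a random block and array weights (adjusted p 0.00438 to 0.0479, limma). With slide as a fixed block Tie1 differed by 0.97 after the challenge (adjusted p 0.556, limma), and with brightness as a covariate by 1.09 (adjusted p 0.0675, limma). Within the shared slide the difference under rapamycin was 0.77 (adjusted p 0.172, limma).

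Tek, the angiopoietin receptor itself, went the other way under rapamycin. It read -0.32, -0.51 and -0.23 with DMSO and -0.19, -1.07 and -0.65 with BA+DMSO, groups that overlapped. With rapamycin it read 0.13, -0.13 and 0.07, and with BA+rapamycin -1.50, -1.36 and -0.05. Replicates 1 and 2 of the last group were the lowest of all arrays, while replicate 3 lay above rapamycin replicate 2, so these groups overlapped too. The difference was -0.99 ± 0.35 (SE, adjusted p 0.0415, limma), and -1.46 without BA+rapamycin replicate 3 (adjusted p 0.00462, limma). Leaving out DMSO replicate 1, 2 or 3, rapamycin replicate 1, 2 or 3, or BA+rapamycin replicate 1 or 2 lost the call, at adjusted p from 0.0564 to 0.136 (limma), and within the shared slide it was -0.94 (adjusted p 0.174, limma). With brightness as a covariate it was -0.54 (adjusted p 0.633, limma).

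Subtracting the probe for Tek from that for Tie1 on the same array removes the scaling between arrays but not an effect of background. Only changes of this difference can be read, since its level depends on the 2 probes, and the pair was chosen after the values were seen and has no test. The difference was 0.65, 1.08 and 0.98 on the DMSO arrays and 1.97, 2.25 and 2.11 on the BA+DMSO arrays. It was 0.82, 1.27 and 0.61 with rapamycin and 2.98, 2.58 and 2.39 with BA+rapamycin. All 6 challenged arrays lay above all arrays without challenge, with changes of 1.21 and 1.75, and BA+rapamycin replicate 3 no longer stood apart. With normexp background correction the fitted differences under rapamycin were smaller for both probes, at 0.42 for Tie1 and -0.51 for Tek. The Kdr probe minus the Pecam1 probe, treated in the same way, changed by 1.56 after the challenge and by 2.60 under rapamycin. In that pair the challenged arrays ranged from 2.33 to 3.78 and the others from 0.39 to 1.66, and BA+rapamycin replicate 3, at 2.47, lay below replicates 1 and 2 at 3.78 and 3.64.

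**Figure D2:**
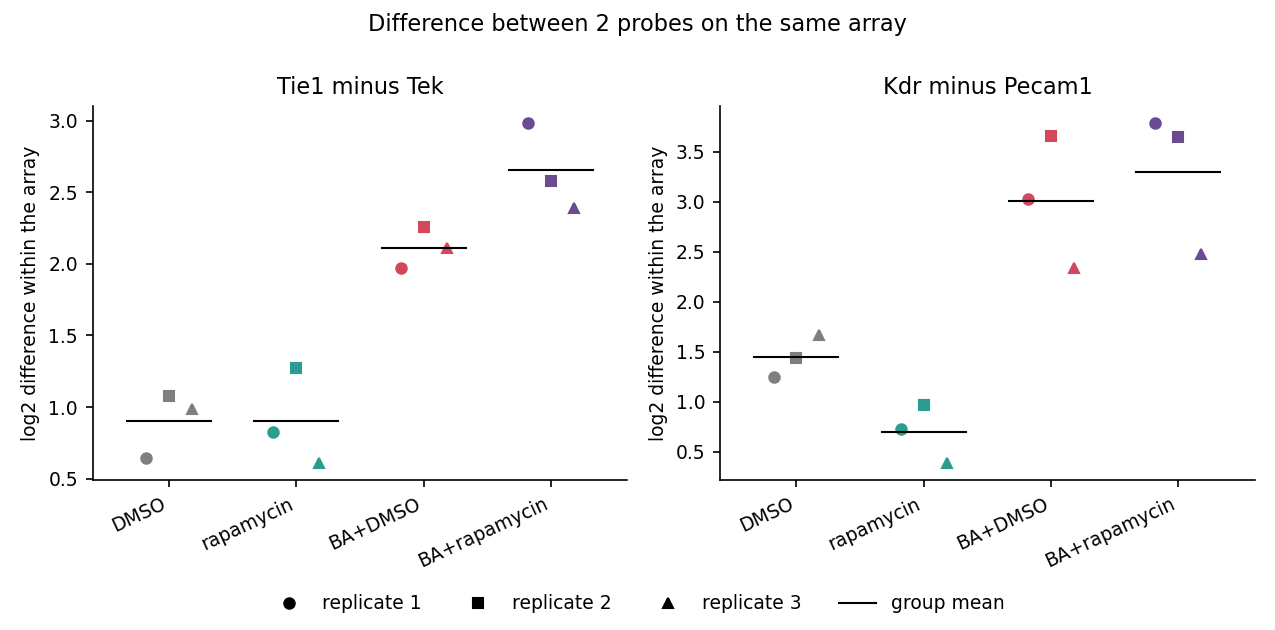
Difference in log2 intensity between 2 probes of the same array (y axis) for Tie1 minus Tek and Kdr minus Pecam1 in the 4 groups (x axis); symbols are the 3 replicates and lines the group means. For Tie1 minus Tek the challenged arrays lie between 1.97 and 2.98 and the others between 0.61 and 1.27.

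Eng, the co-receptor for TGF-β family ligands on endothelial cells, rose in both challenge comparisons. Its log2 values were 2.04, 2.26 and 2.32 with DMSO and 3.06, 2.98 and 2.96 with BA+DMSO, a group with an SD of 0.05. They were 2.42, 2.81 and 2.00 with rapamycin and 2.91, 2.82 and 3.52 with BA+rapamycin. The groups of each comparison did not overlap, but rapamycin replicate 2 and BA+rapamycin replicate 2 differed by little. The differences were 0.79 ± 0.24 (SE, adjusted p 0.0391, limma) and 0.68 ± 0.24 (adjusted p 0.0420, limma). The first call was lost without DMSO replicate 1, 2 or 3, rapamycin replicate 1, BA+DMSO replicate 1 or BA+rapamycin replicate 1 (adjusted p 0.0506 to 0.124, limma). The second was lost without DMSO replicate 1, 2 or 3, rapamycin replicate 1 or 3, BA+DMSO replicate 1, or BA+rapamycin replicate 1 or 3 (adjusted p 0.0509 to 0.170, limma), and within the shared slide it was 0.68 (adjusted p 0.166, limma). With slide as a fixed block the first difference was 0.81 (adjusted p 0.561, limma), and with brightness as a covariate the differences were 0.76 (adjusted p 0.110, limma) and 0.63 (adjusted p 0.397, limma).

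Pecam1, the most widely used endothelial marker, had its highest level with rapamycin alone. It read 1.55, 1.46 and 1.50 with DMSO, 2.21, 1.94 and 2.08 with rapamycin, 1.16, 1.29 and 1.21 with BA+DMSO, and 0.64, 1.04 and 1.94 with BA+rapamycin. The first 3 groups were narrow, with SDs of 0.05, 0.14 and 0.07, and did not overlap each other, while the last spread over an SD of 0.67 and its replicate 3 equalled rapamycin replicate 2 to 2 decimals, without passing it. Against rapamycin alone the challenged group differed by -0.87 ± 0.27 (SE, adjusted p 0.0256, limma), and by -1.24 without BA+rapamycin replicate 3 (adjusted p 0.00264, limma). Leaving out rapamycin replicate 1 or 3, or BA+rapamycin replicate 1 or 2, lost the call (adjusted p 0.0719 to 0.0854, limma), as did quantile normalization (-0.73, adjusted p 0.0633, limma). Within the shared slide the difference was -0.80 (adjusted p 0.151, limma), and with brightness as a covariate -0.86 (adjusted p 0.313, limma). The step from DMSO to BA+DMSO was -0.28 ± 0.27 (adjusted p 0.492, limma), and that from DMSO to rapamycin was 0.58 ± 0.27 (adjusted p 1, unadjusted p 0.0563, limma).

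Vwf encodes von Willebrand factor, which endothelial cells store and release to catch platelets. The bright probe read 5.28, 5.38 and 5.64 with DMSO, 5.90, 6.22 and 5.44 with rapamycin, 5.89, 5.98 and 5.88 with BA+DMSO, and 5.58, 5.90 and 6.45 with BA+rapamycin. The BA+DMSO arrays lay above the DMSO arrays by 0.49 ± 0.25 (SE, adjusted p 0.192, limma), and the other comparisons overlapped. A dim second probe, assigned to another transcript and placed at chr6:125542106-125542165, was called in both challenge comparisons, at 0.94 (adjusted p 0.0196, limma) and 1.51 (adjusted p 0.00138, limma). With both probes averaged the difference was 0.71 after the challenge, not called (adjusted p 0.0531, limma), and 0.81 under rapamycin (adjusted p 0.0196, limma).

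The remaining junction genes, Cdh5, Cldn5 and Esam, did not pass the test in any comparison of the fit used throughout. Cdh5 ranged from 0.64 to 1.01 with DMSO, from 0.98 to 1.40 with rapamycin, from 0.48 to 2.15 with BA+DMSO and from 1.09 to 2.46 with BA+rapamycin. Its BA+DMSO arrays enclosed the DMSO arrays, and the difference of 0.58 ± 0.43 had a confidence interval from -0.38 to 1.53. It was 0.21 without BA+DMSO replicate 1 (adjusted p 0.784, limma) and 1.04 without BA+DMSO replicate 2 (adjusted p 0.0694, limma), and with array weights it was 1.17 and called (adjusted p 0.0227, limma). Esam lay between 2.24 and 2.52 on all arrays except BA+rapamycin replicate 3 at 3.18, with a difference of 0.17 ± 0.21 after the challenge. Cldn5 read 1.98, 2.02 and 2.57 with DMSO, 2.99, 2.79 and 2.48 with BA+DMSO and 1.86, 1.16 and 2.67 with BA+rapamycin. Within the challenged groups it differed by -0.86 ± 0.34, with an unadjusted p of 0.0269 (adjusted p 0.211, limma), and the groups overlapped. Over 24 other settings this difference ran from -1.24 to -0.49 and was called in 0.

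**Figure D3:**
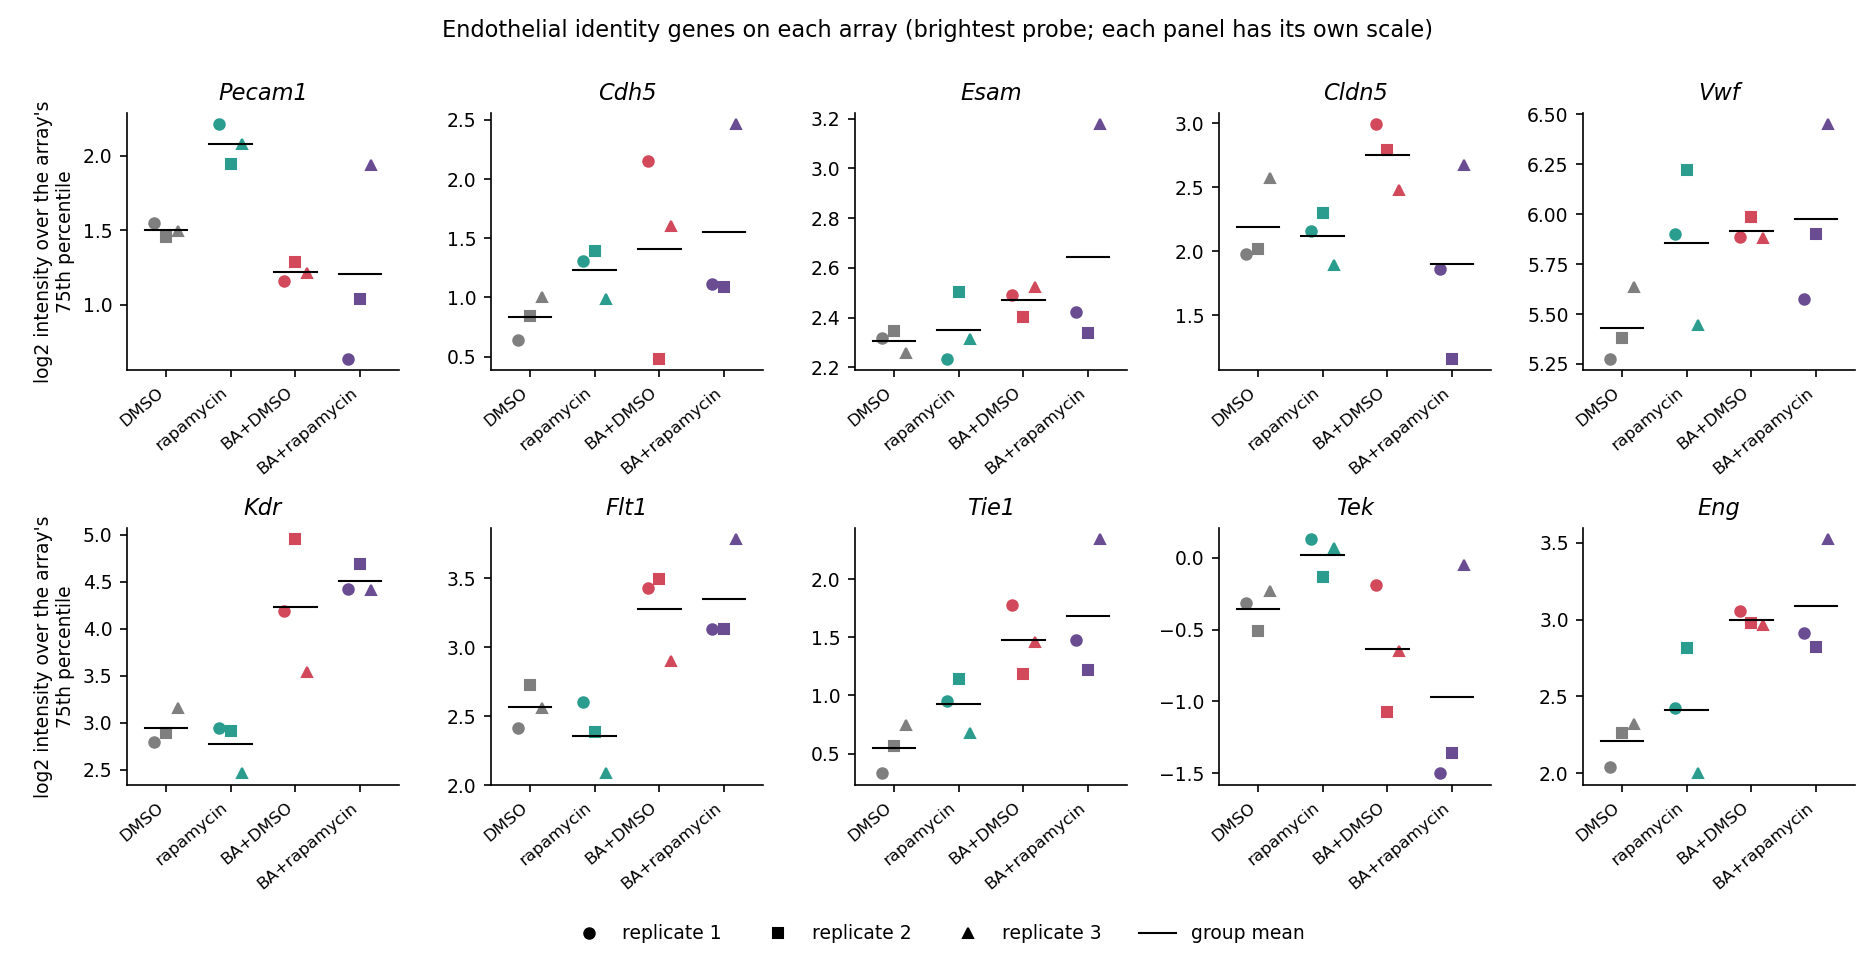
Log2 intensity over the array's 75th percentile (y axis, a separate scale for each gene) on the 12 arrays, by group (x axis), for the brightest probe of each gene; symbols are replicates 1 to 3 and lines the group means. Kdr, Flt1, Tie1 and Eng lie higher on the challenged arrays, Tek is lowest on BA+rapamycin replicates 1 and 2, and BA+rapamycin replicate 3 tops its group for every gene except Kdr.

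Rapamycin was compared in mice without the challenge and within it. No member was called with rapamycin alone, where 0.0036% of all probes were called by limma. No member had an unadjusted p under 0.05 there, beside 1187 of all 27801 probes. No member was called either under the challenge, where 0.281% of all probes were called. There 5585 of all 27801 probes had an unadjusted p under 0.05 (limma). By the brightest probe of each gene, Cldn5 alone of the 10 members had one. The second Vwf probe also did, at 0.60 (unadjusted p 0.0291, adjusted p 0.214, limma), with groups that did not overlap. The smallest adjusted p over the 10 genes was 1 and 0.211. These comparisons do not show equality, since the confidence interval for Kdr under the challenge ran from -0.39 to 0.95 and that for Tek from -1.11 to 0.44. Without BA+DMSO replicate 2 Kdr differed by 0.64 under the challenge and was called (adjusted p 0.0497, limma), but without BA+DMSO replicate 3 it differed by -0.06 (adjusted p 0.956, limma). It differed by -0.15 with brightness as a covariate (adjusted p 0.649, limma) and by 0.03 with both probes averaged (adjusted p 0.959, limma). The change in the effect of the challenge with rapamycin, an interaction term, called no member and 0% of all probes. No member had an unadjusted p under 0.05 for it, beside 1702 of all 27801 probes. Estimates of the interaction ran from -0.79 for Cldn5, -0.71 for Tek and -0.59 for Pecam1 to 0.46 for Kdr. That some genes passed in one challenge comparison and not in the other is therefore not shown to be a difference between them.

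Averaged over the 10 genes as the difference from the DMSO mean, each array had a summary level. The DMSO arrays gave -0.12, -0.02 and 0.14, the rapamycin arrays 0.27, 0.33 and -0.02, the BA+DMSO arrays 0.68, 0.43 and 0.37, and the BA+rapamycin arrays 0.19, 0.19 and 1.05. The BA+DMSO arrays lay above all DMSO arrays, and BA+rapamycin spread from below rapamycin replicate 1 to the highest value of all. A list of 18 other genes found across endothelium, such as the sialomucin endomucin (Emcn), the guidance receptor Robo4 and the adhesion receptor Cd93, gave 0.49, 0.50 and 1.17 on the BA+rapamycin arrays, again highest on replicate 3. For these genes the BA+DMSO arrays lay between 0.40 and 0.75 and the DMSO arrays between -0.06 and 0.04. The macrophage list did not share that order, with values between 1.93 and 2.00 on the 3 BA+rapamycin arrays, while the mesothelium list did, with 2.67 on replicate 3 and 0.09 and 0.31 on the others.

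Of the 17 other pan-endothelial genes tested, 6 rose after the challenge and none fell, with a median of 0.67, where 9.65% of all probes were called higher. The named ones were Emcn at 1.40 (adjusted p 0.0227, limma), Ushbp1 at 1.18 (adjusted p 0.00787, limma) and Robo4 at 1.096 (adjusted p 0.0360, limma). Under rapamycin 6 rose and none fell, with a median of 0.55, where 18.9% of all probes were called higher. They were led by Myct1 at 1.48, Cd93 at 1.41 and Ushbp1 at 1.32 (adjusted p 0.00272 to 0.0032, limma). Among 13 endothelial transcription factors the repressor gene Bcl6b rose by 1.34 after the challenge (adjusted p 0.0193, limma), while Epas1, the hypoxia-inducible factor HIF-2α, fell by 0.97 (adjusted p 0.0215, limma), with a median of 0.46. Under rapamycin 4 rose and 1 fell, among them Bcl6b at 1.58, Epas1 at -1.51 and the haematopoietic and endothelial regulator Tal1 at 0.80, with a median of 0.39.

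Of 7 VEGF ligand and co-receptor genes tested after the challenge alone, 4 rose and 1 fell, with a median of 0.83. Placental growth factor (Pgf), a ligand of FLT1, rose by 1.55 (adjusted p 0.0218, limma), the co-receptor Nrp2 by 1.42 (adjusted p 0.00599, limma) and Vegfd, named Figf on the array, by 1.23 (adjusted p 0.0307, limma). Under rapamycin the median was -0.03, with Pgf at 1.42 and Vegfb at -0.96 the called genes. Of the partners of TEK and TIE1, 5 genes were tested and had medians of 0.20 and -0.85. Svep1, an extracellular matrix protein that binds TIE1, rose by 1.40 after the challenge (adjusted p 0.0152, limma). Angpt2, the angiopoietin released by activated endothelium, fell by 2.28 under rapamycin (adjusted p 0.00269, limma) and differed by -1.28 after the challenge alone (adjusted p 0.0519, limma). Angpt4 was not well above background on any BA+rapamycin array and was at least 3.05-fold lower there than with rapamycin. In this comparison it was measured only with rapamycin, the group where it was high, so its fall is a description only. The median of -0.85 includes it.

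Partners of endoglin in the BMP pathway and partners of the junction proteins were taken as lists of their own. Of 10 BMP pathway genes tested, 3 fell after the challenge, 0 rose and 7 did not pass the test, with a median of -0.51, where 10.8% of all probes were called lower. The signal transducer Smad9 differed by -2.47, the inhibitor Smad6 by -1.15 (adjusted p 0.0277, limma) and Smad5 by -0.59 (adjusted p 0.0382, limma). Only 1 of the 3 arrays with BA+DMSO measured Smad9 above background, so that its size after the challenge rests partly on background. Under rapamycin 7 of the 10 fell, with a median of -0.995, where 22.9% of all probes were called lower (Id1, a BMP target, -1.93, adjusted p 0.00885; Smad1 -1.29, adjusted p 0.016; limma). Smad9 was not well above background on any BA+rapamycin array and at least 4.99-fold lower. It was bright enough to be tested only through the groups without challenge, where it was high, so its falls are a description only. The counts and medians of the BMP pathway genes include it. Of 8 junction partners 1 rose and 2 fell after the challenge, with a median of -0.67. Jam2, a junctional adhesion molecule of endothelium, rose by 1.68 (adjusted p 0.00208, limma), whereas Jam3 and the scaffold gene Tjp1 (ZO-1) were lower, at -1.22 (adjusted p 0.0133, limma) and -0.85 (adjusted p 0.0363, limma). Under rapamycin 2 rose and 5 fell, with a median of -0.98, including Jam3 at -1.57, Jam2 at 1.31 and β-catenin (Ctnnb1) at -1.17.

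The lists of endothelial subtypes and states, like the lists before and after them, are to be read against the shares of all probes called, which were 9.65% higher and 10.8% lower after the challenge and 18.9% higher and 22.9% lower under rapamycin. Of 9 genes of sprouting tip cells tested, 5 rose and 1 fell after the challenge, with a median of 1.00. The proteoglycan gene Esm1, induced by VEGF, rose by 4.07, from 0.01 to 4.08 (adjusted p 0.00102, limma), and by 3.94 under rapamycin (adjusted p 0.000752, limma). Next in size were Pgf at 1.55 and the urokinase receptor gene Plaur at 1.46 (adjusted p 0.0474, limma), the latter with overlapping groups. Pgf was also counted among the VEGF ligands. The vasodilator peptide gene Adm fell by 2.45 under rapamycin (adjusted p 0.000428, limma), and it was also the gene that fell after the challenge, by 1.42, a value looked up afterwards. That list had 5 higher and 2 lower under rapamycin, with a median of 0.78. Among 7 arterial genes the connexin gene Gja4 rose by 1.86 (adjusted p 0.00978, limma) and the Notch ligand Jag1 fell by 0.71 after the challenge, with a median of -0.05. Under rapamycin the Notch target Hey1 and the ephrin Efnb2 were lower, at -1.37 and -0.93, with a median of -0.34. Of 7 venous and capillary genes 2 rose after the challenge, Cd36 by 1.52 and P-selectin (Selp) by 1.41, with a median of 0.49. Under rapamycin 4 rose and 1 fell, with a median of 0.67 (Nr2f2 -1.48, Selp 1.11, Plvap 1.08). Of 3 lymphatic genes tested Pdpn rose by 1.95 and Lyve1 by 1.72 after the challenge, and Pdpn by 2.08 under rapamycin, with medians of 1.72 and 0.18. The defining lymphatic genes Prox1 and Flt4 were not well above background on any array. Of 5 transcription factors of endothelial to mesenchymal transition, Snai1 rose by 2.06 and 1.77 in the 2 challenge comparisons. Zeb1 differed by -1.05 and -0.93 and was called lower in both, and the medians of this list were -0.22 and 0.06.

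**Figure D4:**
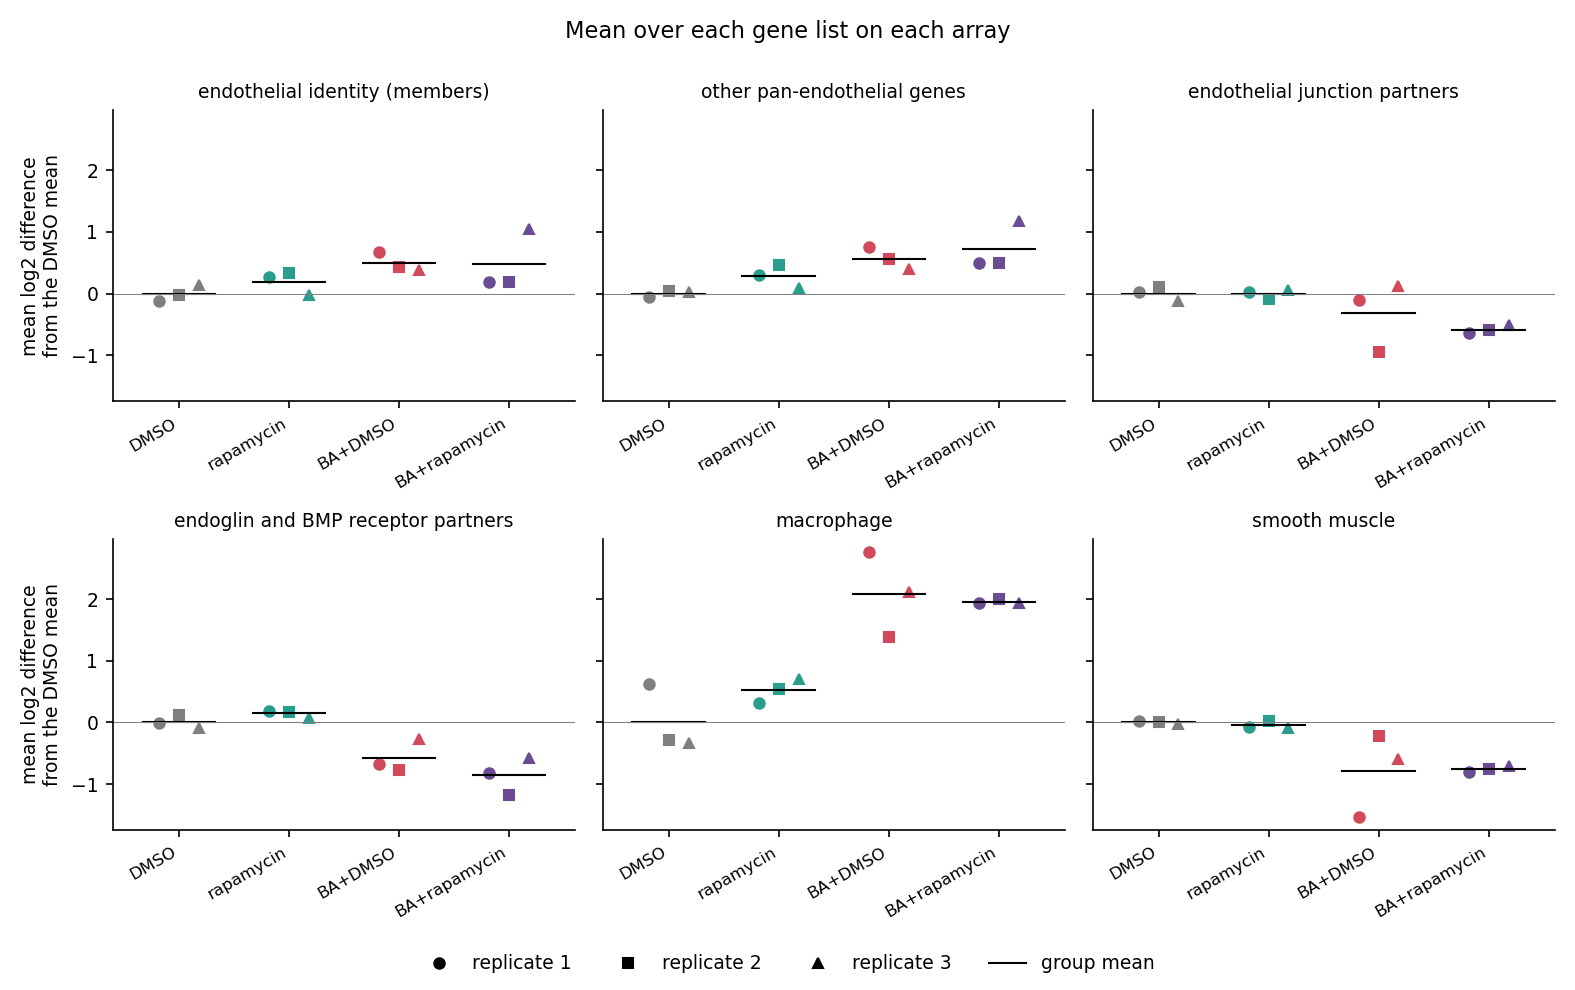
Mean log2 difference from the DMSO mean over 6 gene lists (y axis, shared scale) on the 12 arrays by group (x axis); symbols are replicates and lines the group means. The 10 endothelial genes and the other pan-endothelial genes are highest on BA+rapamycin replicate 3, macrophage genes reach 1.39 to 2.76 with BA+DMSO, and smooth muscle genes lie between -1.53 and -0.21 there.

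Markers of other cell types moved with the challenge as well, and their part in the endothelial values was not tested. Of 11 macrophage genes 10 rose after the challenge, with a median of 2.23 (Cd68 2.63, C1qb 2.56), and 7 rose under rapamycin, with a median of 1.43 (Fcgr1 2.42, Itgam 1.92). Their mean difference lay between -0.33 and 0.62 on the DMSO arrays, between 0.32 and 0.71 with rapamycin, between 1.39 and 2.76 with BA+DMSO and between 1.93 and 2.00 with BA+rapamycin. Of 8 platelet genes tested Pf4 rose after the challenge at 1.46, with overlapping groups, and 3 rose under rapamycin. The platelet medians were 1.29 and 1.26 (Treml1 2.29). Gp9, counted among the 3, was well above background on 1 BA+rapamycin array and on 0 rapamycin arrays. Gp9 and Itga2b were well above background on only 6 of all arrays, and Gp1ba on 8. The platelet counts and medians include such genes, so they describe the list and support no conclusion. The platelet mean ran from -0.93 to 1.00 with DMSO, from -1.10 to -0.38 with rapamycin, from 0.72 to 1.43 with BA+DMSO and from 0.04 to 1.01 with BA+rapamycin. Of 10 smooth muscle genes 2 fell and none rose after the challenge, with a median of -0.62 (Synpo2 -2.58, Lmod1 -1.91), and 1 rose and 4 fell under rapamycin, with a median of -0.51 (Synpo2 -2.82, Lmod1 -1.89). Of 8 pericyte genes 1 rose and 2 fell, with a median of -0.15 (Rgs5 -2.59, Notch3 -1.70), and under rapamycin 3 rose and 2 fell, with a median of 0.23.

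Lists of the other cell types followed. Of 10 fibroblast genes 3 rose after the challenge and 4 under rapamycin, with medians of 0.67 and 0.32 (Ly6c1 1.57, Col1a1 0.99, then Pi16 1.66, Col1a1 1.57). Of 4 red cell genes tested 4 and 3 rose, with medians of 1.87 and 1.80 (Alas2 2.45 and 2.16, Hbb-b1 2.03). Of 6 mesothelial genes 5 and 0 rose, with medians of 2.73 and 0.15 (Upk3b 3.00, Lrrn4 2.87). On the DMSO arrays Upk3b was well above background on 2 of 3 and Lrrn4 on 1 of 3, so these sizes rest partly on background. Lrrn4 was bright enough to be tested only through BA+DMSO, the group where it was high, and Upk1b was well above background on only 5 arrays. The mesothelial count and median include such genes, so they describe the list and support no conclusion. Of 4 neutrophil genes 1 and 1 rose, with medians of 1.69 and 0.40 (Ly6g 1.87 with overlapping groups, Csf3r 1.31). Of 6 lymphocyte genes 2 and 2 rose, with medians of 0.65 and 0.55 (Cd2 2.09, Cd3e 0.92). Of 7 adipocyte genes Ucp1 was at least 6.47-fold higher after the challenge, not being well above background on any DMSO array. It was bright enough to be tested only through BA+DMSO, the group where it was high, so its rise is a description only. Cidea fell by 2.61 under rapamycin, and the adipocyte medians were 1.42 and 1.65. Over the 161 genes of all these lists tested, 65 were called after the challenge, where 20.5% of all probes were called. After the challenge under rapamycin 75 were called, where 41.7% of all probes were. In each of the 2 rapamycin comparisons 0 were called by limma. An unadjusted p under 0.05 (limma) was found there for 31 genes under the challenge, beside 5585 of all 27801 probes. With rapamycin alone it was found for 16 genes, beside 1187 of all 27801 probes.

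Reference promoters show what lies before the start of members of the list. Of the 10 genes 6 (Tek, Tie1, Kdr, Flt1, Eng and Cldn5) matched the RefSeq table of build GRCm38.p6, and those of Kdr, Tie1 and Eng, the 3 genes called after the challenge, are printed as the 250 bases before the start. The Tie1 window is chr4:118489850-118490099 on the reverse strand, the Eng window is chr2:32646345-32646594 on the forward strand, and the Kdr window is chr5:75978456-75978705 on the reverse strand. Capitals mark matches on either strand to any of the 5 words searched, given after the sequences. In Tie1 and Eng the word found was AGGAAG, which reads CTTCCT on the other strand. In Kdr it was CCGGAA, which reads TTCCGG there, and both are words read by ETS factors. ETS factors such as ERG and FLI1 drive many endothelial genes.

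Tie1: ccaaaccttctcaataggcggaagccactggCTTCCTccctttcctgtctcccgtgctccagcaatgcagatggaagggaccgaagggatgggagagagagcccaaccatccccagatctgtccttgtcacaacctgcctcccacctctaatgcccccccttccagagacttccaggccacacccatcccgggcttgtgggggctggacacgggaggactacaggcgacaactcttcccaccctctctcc

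Eng: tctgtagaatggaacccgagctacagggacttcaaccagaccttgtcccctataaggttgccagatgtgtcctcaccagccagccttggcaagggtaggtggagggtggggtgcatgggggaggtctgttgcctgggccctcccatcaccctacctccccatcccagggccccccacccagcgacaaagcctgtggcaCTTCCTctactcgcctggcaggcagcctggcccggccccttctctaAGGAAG

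Kdr: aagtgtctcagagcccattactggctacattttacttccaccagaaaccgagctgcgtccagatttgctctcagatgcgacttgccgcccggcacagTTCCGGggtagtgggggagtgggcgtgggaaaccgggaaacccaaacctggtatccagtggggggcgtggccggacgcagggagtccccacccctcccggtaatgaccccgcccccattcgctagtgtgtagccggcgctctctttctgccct

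AGGAAG was present in 3 of the 6 windows (Tie1, Eng and Flt1) and in 29.5% of all 32851 promoter windows of the same length. A second ETS core, CCGGAA, was in the Kdr window and in 12% of all. The SOX letters AACAAT were in the Tek window (9.42% of all), the TATA letters TATAAA in the Flt1 window, 31 bases before its start (12.4% of all), and the GATA letters AGATAA in none of the 6 (9.99% of all). Both strands were searched for each. The ETS words share the core GGAA with different bases before it, so they cannot match at the same core. These matches are descriptions of letters in the reference and not of binding. Of the ETS factor genes in the transcription factor list, chosen here after their values were seen, Erg differed by 0.25 (adjusted p 0.347, limma) and Fli1 by 0.46 (adjusted p 0.252, limma) after the challenge, neither called. Ets1 differed by 0.46 after the challenge (adjusted p 0.0644, limma) and rose by 0.45 under rapamycin (adjusted p 0.0437, limma).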

How the data were processed

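RNA from 12 mouse aortas was labelled and hybridised by the authors to single-colour Agilent arrays of 62976 spots. The deposited scanner files hold processed signal intensity, mean and background intensity and detection flags per spot, written by Feature Extraction 10.7.1.1 per the file headers, whereas the submitters' processing notes name Agilent Feature Extraction 9.5.1.1. The deposited value matrix holds the authors' quantile-normalized intensity and served as an alternative.

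Control spots (3671) and outlier spots (0.188% of spots) were left out, spots of 1 probe were averaged, and log2 processed intensity was centred on the 75th percentile of each array. Probes were tested where their spots were well above background on every array of at least 1 group, which left 27801 of 55681 probes and 20026 gene names. One model of 4 groups was fitted to all tested probes with lmFit and eBayes in limma 3.58.1 (R 4.3.3) and tested on simulated data. P-values were adjusted by Benjamini-Hochberg over all tested probes, and an adjusted p under 0.05 was called. The number of arrays limits the precision, and an exact permutation test of 3 against 3 arrays cannot go below 0.1. Array weights, where tried, were estimated gene by gene.

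The members and gene lists were chosen with earlier results of these data known. Of each other list, up to 3 called genes with the largest difference were named in each comparison, and up to 2 for lists of other cell types. Some lists share genes, among them Pgf, Angpt2, Sox17 and Ptprb, so their counts are not separate observations. A total of 27 alternatives was run. Promoter sequences came from RefSeq (GRCm38.p6), with 6 of 10 genes matched, and probe sequences and positions (mm9) from the scanner files. Titles of 2 DMSO and 2 rapamycin arrays share their endings, which nothing in the labels explains, so these were treated as pairs only in an alternative.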

Additional observations from a re-analysis of the deposited data

How the results depend on the processing

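None of the 8 calls on single endothelial genes reversed in 197 repeats under other settings. Many of these repeats could not reverse a call. A changed filter, a fit of only the groups compared, or leaving out an array of another group keeps the estimate as it was. Their direction and call were kept in 126 and the call was lost in 71, and 17 of 1023 repeats of uncalled results gained a call. The 3 calls after the challenge became 1 with normexp background correction, 1 without the filter on dim probes, 0 with slide as a fixed block (where 15 of all probes were called), 1 with array brightness as a covariate, 5 with array weights, 0 when only the 2 groups compared were fitted, and 0 at the study's stricter rule (fold over 4 with unadjusted p below 0.01). The 5 calls under rapamycin became 2 with slide as a fixed block, 0 with brightness, 2 with only the groups compared, 1 within the slide and 0 at the study's threshold. Leaving out each array in turn gave 0 to 4 calls after the challenge, 2 to 6 under rapamycin and 0 to 1 for rapamycin under the challenge. It moved the median under rapamycin from -0.044 to 0.50 and that of the interaction from -0.552 to -0.003, the lowest of each without BA+rapamycin replicate 3. With the replicate block, over 2 pairs, rapamycin alone called 0 genes, with a median of 0.18. The median of all probes after the challenge under rapamycin was -0.18 under quantile normalization, 0.14 with normexp and 0.85 without the filter, against -0.09. Pecam1 under rapamycin was not called with quantile normalization (-0.73) or with the percentile over detected probes (-0.69), and Tek lost its call with the latter (-0.81). Normexp lost the calls of Tie1 (0.68) and Eng (0.56) after the challenge and of Eng under rapamycin (0.27). The cause was not tested. Signal over background left 1 of the 3 Flt1 probes untested.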
